A study of Mus musculus with 6 samples.

Results

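Retinoic acid is made from retinol in a pair of oxidation steps, carried in the cytosol by small binding proteins and destroyed by cytochrome P450 enzymes. The enzymes and carriers examined were the retinol dehydrogenase Rdh10 and the retinaldehyde reductase Dhrs3, the retinaldehyde dehydrogenases Aldh1a1, Aldh1a2 and Aldh1a3, the binding proteins Crabp1 and Crabp2, and the clearing enzymes Cyp26a1 and Cyp26c1. They were chosen by gene symbol. Of these 9 genes, 8 had probes on the array, 13 probes in all, out of 19057 genes with a named probe. Cyp26c1 was not analysed here.

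The data are 6 Illumina bead arrays of mouse head ectoderm at embryonic day 9.5, the stage at which the lens placode forms where surface ectoderm meets the optic vesicle. The groups were Pax6-/- ectoderm, whose tissue is labelled surface ectoderm (3 arrays), and wild-type ectoderm labelled lens placode (3 arrays), both on a mixed FVB and 129 background. Pax6 is a transcription factor without which no eye forms, and the comparison asked what its loss changes in this ectoderm. Tissue was laser-microdissected from frozen sections 10 µm thick, and the RNA of 3 embryos of a genotype was pooled before triplicate amplification. The arrays of a genotype therefore share 1 pool, their spread is that of amplification and hybridisation, and each p-value is about 2 pools, smaller than a test over embryos would give. The labels do not say which part of Pax6 was deleted.

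In the developing eye, retinoic acid made by Aldh1a enzymes of the optic vesicle, the overlying ectoderm and the surrounding mesenchyme acts as a diffusible signal. It binds the nuclear receptors Rara, Rarb and Rarg, which pair with Rxr receptors on response elements made of repeated hexamers. Rdh10 forms retinaldehyde from retinol and Dhrs3 turns it back. Aldh1a1, Aldh1a2 and Aldh1a3 oxidise retinaldehyde to retinoic acid. Crabp2 delivers the acid to receptors, Crabp1 holds it in the cytosol, and Cyp26 enzymes hydroxylate it.

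Response elements with a spacer of 5 bases (DR5) were searched on both strands of RefSeq promoter windows, which run from 250 bases before to 50 bases after a gene's start (build GRCm38.p6). The hexamers accepted were those of the textbook consensus, AGNTCA or GGNTCA with G or T at the N, and any bases between the repeats. A DR5 was found in 32 of 32851 windows (0.0974%). Windows were at hand for 6 of the 9 genes, and 1 of their 9 windows held a DR5, that of Cyp26a1. Among 60 genes of the wider retinoid pathway with a window, Cyp26a1 and the receptor gene Rarb held one, and no other did. Both elements are long known and belong to those the consensus was drawn from, so that they match is no finding. Repeats with spacers of 1 or 2 bases were found in 0.222% and 0.268% of all windows and in 0 of these 9. A match is a description of the letters and does not show binding. Both windows with a DR5 are shown, because retinoic acid is known to induce these genes in many tissues. The Cyp26a1 window is chr19:37697558-37697857 on the plus strand, and the Rarb window is chr14:16575427-16575726 on the minus strand. Capitals mark the hexamers.
Cyp26a1 promoter: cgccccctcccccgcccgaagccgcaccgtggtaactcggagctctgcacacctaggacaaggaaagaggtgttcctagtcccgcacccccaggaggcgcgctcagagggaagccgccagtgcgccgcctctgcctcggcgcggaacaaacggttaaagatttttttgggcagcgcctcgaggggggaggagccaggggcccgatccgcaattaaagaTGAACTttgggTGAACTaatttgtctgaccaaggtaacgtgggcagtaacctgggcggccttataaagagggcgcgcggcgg
Rarb promoter: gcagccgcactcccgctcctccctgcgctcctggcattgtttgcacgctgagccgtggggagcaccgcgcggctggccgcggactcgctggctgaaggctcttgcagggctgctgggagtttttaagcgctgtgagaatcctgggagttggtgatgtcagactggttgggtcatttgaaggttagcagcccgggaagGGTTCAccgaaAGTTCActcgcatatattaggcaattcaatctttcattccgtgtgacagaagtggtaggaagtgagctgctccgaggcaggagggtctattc

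The Cyp26a1 element (chr19:37697776-37697792) reads on the strand opposite to the gene, from 32 to 16 bases before the start. The Rarb element (chr14:16575513-16575529) reads on the strand of its gene, from 53 to 37 bases before the start. Written in the same direction to show that the second hexamer is shared, with hexamers in capitals, they are:
Cyp26a1 element: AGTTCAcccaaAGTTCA
Rarb element: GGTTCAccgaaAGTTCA

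Over the whole series, each array detected 16242 to 17735 of its 45281 probes, with a detection p-value under 0.01 as the limit. Arrays of different genotypes correlated over genes at 0.925 to 0.936 and those of the same genotype at 0.947 to 0.954. Of 10 surface ectoderm markers all were detected, and 3 rose in Pax6-/- while 0 fell. These were the basal keratin gene Krt14, by 2.80 on the log2 scale, the desmosome gene Perp, by 1.26, and Trp63, a regulator of stratified epithelium, by 0.77. Cdh1, the brightest of the list, stood at -0.22 (adjusted p = 0.0858). The list had summed linear intensities of 17961 to 18575 on the Pax6-/- arrays and 18785 to 19790 on the wild-type arrays. Of 8 lens placode markers 7 were detected and Foxe3 was not detected on any array. Their summed intensity was 5197 to 5639 in Pax6-/- and 10849 to 12265 in wild type, and 6 of 7 tested lens placode markers fell. On the log2 scale Prox1 fell by 2.82, Mab21l1 fell by 1.45, Sfrp2 fell by 0.99, Pax6 fell by 0.97 and Sox2 fell by 0.95, and Maf, detected on no Pax6-/- array, was at least 3.18-fold lower. Pax6 itself, measured by a probe whose place relative to the deletion is unknown, stood at 10.13 ± 0.11 in Pax6-/- and 11.10 ± 0.19 in wild type (log2 intensity, SD, n = 3 each).

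Within the retinoic acid genes, 1 synthesising enzyme fell steeply in Pax6-/- ectoderm while both binding proteins lay higher without passing the test. Aldh1a3 was 4.18-fold lower in Pax6-/- than in wild type. Crabp1 and Crabp2 were 1.57-fold and 1.56-fold higher, and Aldh1a1 was 1.25-fold higher, none of them past the threshold. Rdh10, Dhrs3, Aldh1a2 and Cyp26a1 were not detected on any array of either genotype. A gene counted as expressed where 3 or more of the 6 arrays detected a probe of it, and 4 genes (6 probes) met this. The other 7 probes, for 4 genes, did not, and no change is given for them. Of the 4 genes tested, 1 fell and 0 rose (limma, adjusted p under 0.05), where 3.28% of all 9190 tested genes were called, 1.76% as lower and 1.51% as higher. All 4 genes had Pax6-/- and wild-type values without overlap, which was so for 22.8% of all tested genes.

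**Figure D1:**
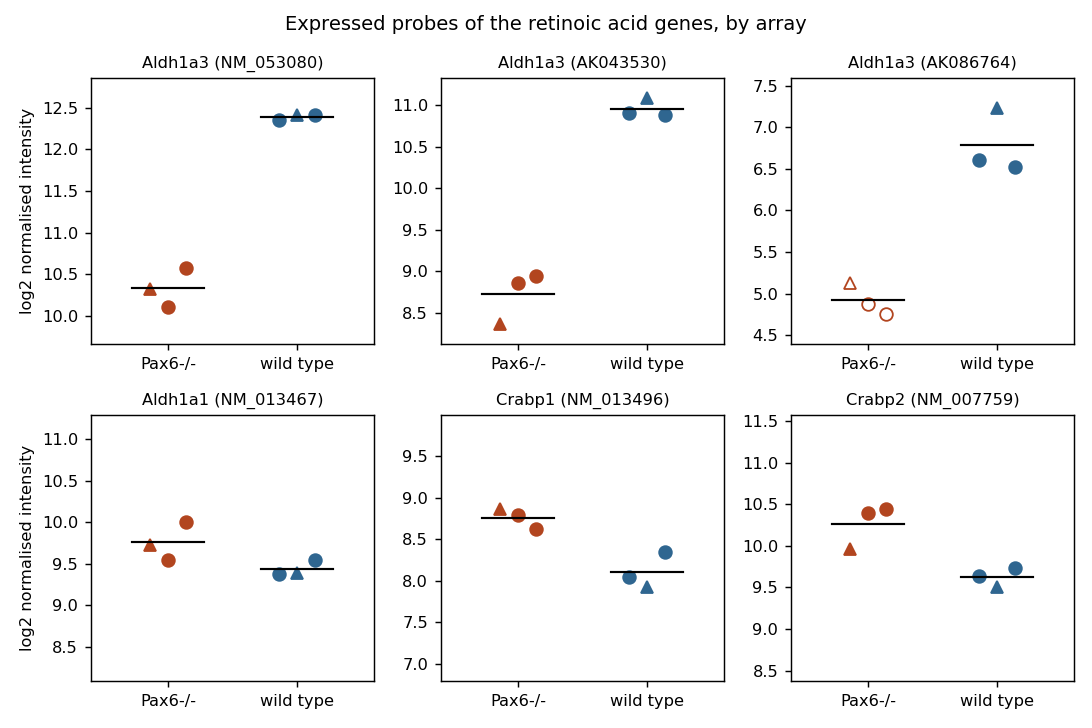
Log2 normalised intensity (vertical axis, each panel spanning the same range) of the 6 expressed probes on 3 Pax6-/- arrays (left) and 3 wild-type arrays (right). Circles are arrays of slide 1, triangles arrays of slide 2, open symbols arrays where the probe was not detected, and lines group means. The Aldh1a3 panels show the Pax6-/- arrays far below the wild-type arrays, and the other panels show them slightly above.

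Aldh1a3 was read by 3 probes, each assigned to a different transcript record of the gene. The brightest, designed to the RefSeq transcript, had deposited signals of 1404, 1143 and 1640 on Pax6-/- arrays 1, 2 and 3, against 5698, 5720 and 5565 on wild-type arrays 1, 2 and 3. After normalisation these were log2 intensities of 10.32, 10.10 and 10.57 in Pax6-/- and 12.36, 12.41 and 12.41 in wild type. Every Pax6-/- array lay below every wild-type array by more than the range within either genotype. The transcript remained well above background in the Pax6-/- pool.

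The group means were 10.33 ± 0.23 in Pax6-/- and 12.40 ± 0.03 in wild type (SD, n = 3 each). Aldh1a3 fell by 2.06 on the log2 scale (SE 0.12, 95% interval -2.32 to -1.81, limma adjusted p = 9.89e-06). By p-value it ranked 2 of 9190 tested genes, and by size of change 34 from the lowest. A lower level in ectoderm can come from fewer cells that express the gene or from less RNA per cell, and these cannot be told apart in bulk tissue. On slide 1, with 2 arrays per genotype, the change was -2.05, and between the 2 arrays of slide 2 it was -2.09. The call held with each array left out in turn.

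The second Aldh1a3 probe, assigned to a cDNA clone record, gave log2 intensities of 8.36, 8.86 and 8.94 in Pax6-/- and 10.90, 11.08 and 10.88 in wild type. It fell by 2.23 (SE 0.17, 95% interval -2.61 to -1.86, adjusted p = 9.14e-05 among 14535 expressed probes, of which 2.78% were called and 1.43% fell). This interval overlaps that of the RefSeq probe. The dimmest probe, assigned to another clone record, was detected on all wild-type arrays, at 6.61, 7.23 and 6.52, and on no Pax6-/- array, at 5.13, 4.87 and 4.75. It was not well above background in Pax6-/-, so only a bound holds there. The probe was at least 2.07-fold lower, taken against the lowest detected intensity of each Pax6-/- array. Its limma test used the measured values, below detection in Pax6-/-, and gave -1.87 (SE 0.35, adjusted p = 0.0156). All 3 probes thus lay lower. The dim one met the detection rule only through the wild-type arrays, so its call adds no separate support. The call of this dim probe was lost without Pax6-/- array 2 (adjusted p = 0.0651), without Pax6-/- array 3 (0.0582), without wild-type array 2 (0.0749) and on slide 1 alone (0.156).

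Because each array value is a mean over beads, its counting of beads can be set beside the spread between arrays. For the RefSeq probe of Aldh1a3 the standard error over beads was 4.46%, 5.83% and 4.55% of the signal on the Pax6-/- arrays and 5.04%, 4.41% and 4.93% on the wild-type arrays, from 39 to 49 beads. Over the 6 expressed probes it was 2.27% to 5.83%, from 32 to 64 beads. This is the error within an array and holds nothing of the spread between pools or embryos.

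Across the 6 arrays, the 3 genes whose log2 intensity was most like that of Aldh1a3 included the gap-junction gene Gja1 (Pearson r = 0.9961) and Smim3, which encodes a small membrane protein (r = 0.9955). The arrays form 2 groups, so that such a likeness mostly repeats the difference between genotypes, and it is given as a description.

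Aldh1a1, the other retinaldehyde dehydrogenase that was expressed, had log2 intensities of 9.73, 9.55 and 10.00 in Pax6-/- and 9.38, 9.39 and 9.54 in wild type. The lowest Pax6-/- array and the highest wild-type array were nearly level. The change was 0.33 (SE 0.16, 95% interval -0.03 to 0.68, limma adjusted p = 0.339). The interval reaches from no difference to a rise, and lies wholly above the interval of Aldh1a3. Slide 1 gave 0.31 and slide 2 gave 0.35, while median scaling of all probes gave 0.17 and the fit without Pax6-/- array 3 gave 0.21.

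**Figure D2:**
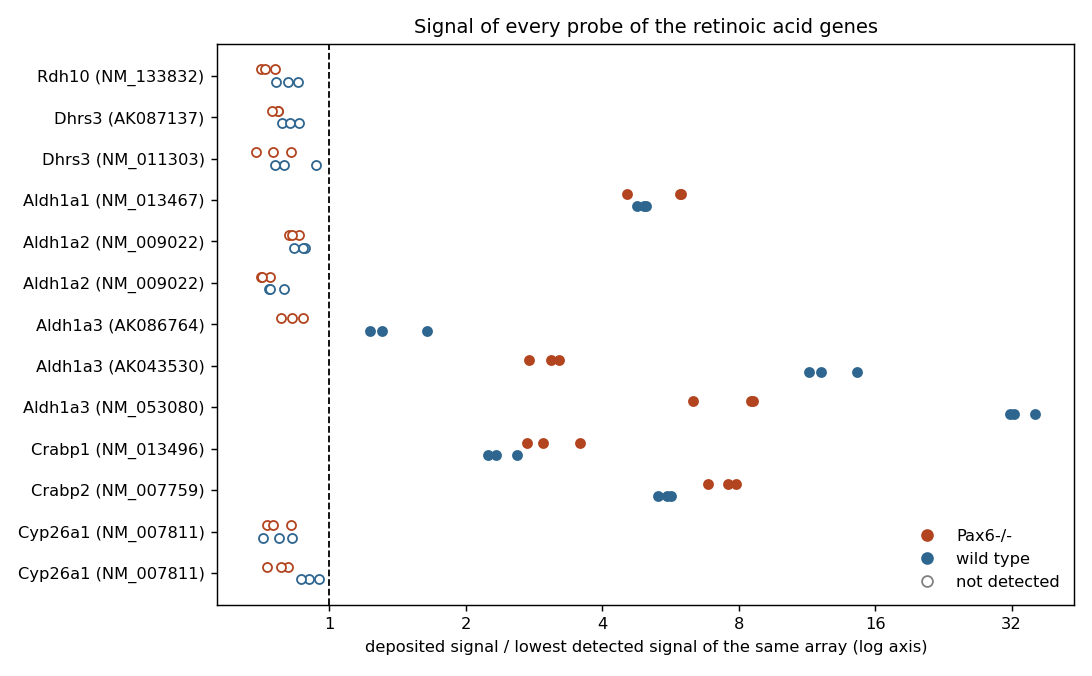
Deposited signal of each of the 13 probes on each array, divided by the lowest detected signal of that array (log axis, dashed line at 1), with Pax6-/- above wild type in each row and open symbols where the probe was not detected. The 42 values of the 7 probes that were not expressed lie between 0.689 and 0.948, and only Aldh1a3 separates the genotypes widely.

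The remaining enzymes of synthesis, and the reductase Dhrs3 that turns retinaldehyde back, were below detection. Aldh1a2, which makes most retinoic acid of the early embryo, was read by 2 probes with detection p-values of 0.138 to 0.893 over the 6 arrays. Rdh10 had 1 probe, with detection p-values of 0.304 to 0.882. Dhrs3, which is induced by retinoic acid, had 2 probes, whose detection p-values were 0.0694 or more. The signals of these 3 genes were 0.932 times the lowest detected signal of the array or less, so any difference between genotypes was not detectable at this signal.

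The same held for clearance. Cyp26a1, whose promoter carries a DR5, had 2 probes that were detected on no array. The probe nearest to detection reached a detection p-value of 0.0342 on wild-type array 3. Its log2 intensities were 4.62, 4.81 and 4.75 in Pax6-/- and 5.06, 4.94 and 5.41 in wild type, which do not overlap but lie below the lowest detected intensity of every array (5.55 to 5.81). The other Cyp26a1 probe overlapped between genotypes. At the inner side of the detection rule stood the dimmest Aldh1a3 probe, detected on exactly 3 arrays.

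Crabp1, which holds retinoic acid in the cytosol, had log2 intensities of 8.86, 8.79 and 8.63 in Pax6-/- and 8.05, 7.93 and 8.35 in wild type. All Pax6-/- arrays were the higher ones. The change was 0.65 (SE 0.21, 95% interval 0.19 to 1.12), with a limma adjusted p = 0.135 and an unadjusted p = 0.0106. An unadjusted p under 0.05 was met by 16.9% of all tested genes. Slide 1 gave 0.51 and slide 2 gave 0.93.

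Crabp2, which passes retinoic acid to its receptors, had log2 intensities of 9.96, 10.40 and 10.45 in Pax6-/- and 9.64, 9.5 and 9.74 in wild type. The Pax6-/- arrays again all lay above, with array 1 the nearest to wild type. The change was 0.64 (SE 0.16, 95% interval 0.29 to 1.00, limma adjusted p = 0.0574). Blocking on the slide gave 0.64 (adjusted p = 0.0368), and without Pax6-/- array 1 it was 0.80 (adjusted p = 0.0338), both past the threshold. Over all 19 alternatives the adjusted p ran from 0.0338 to 0.362. Slide 1 gave 0.74 and slide 2 gave 0.46.

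Both binding proteins are also known from neural crest, mesenchyme and neural tissue, and markers of those cells differed between the pools. Of 14 mesenchyme and neural crest markers on the array 11 were tested, of which 4 rose (Foxd1 by 1.49, Alx4 by 0.99, Col3a1 by 0.94 and Sox9 by 0.74) and Pdgfra fell by 1.23. Of the 11 tested, 9 lay above 0 and 2 below, the other being Snai2 at -0.52 (limma adjusted p = 0.432). The summed linear intensity of the list was 7893 to 8441 in Pax6-/- and 5445 to 6102 in wild type. This sum weighs bright genes most, and Sox9, the brightest tested, had mean log2 intensities of 12.14 in Pax6-/- and 11.39 in wild type. Sox10, Pdgfrb and Col1a1 were not detected on any array. Of 9 neural tube markers on the array 3 were tested and Zic1 rose by 1.83. Of the 3 tested, 2 lay above 0 and 1 below, Neurog2 at -0.50 (limma adjusted p = 0.618). The summed intensity of the list was 676 to 812 in Pax6-/- and 389 to 474 in wild type. Here too Zic1, the brightest tested, weighs most, with mean log2 intensities of 8.63 in Pax6-/- and 6.8 in wild type. Sox1, Sox3, Zic2, Nkx2-2 and Olig2 were not detected on any array. Of 4 tested erythroid genes 3 rose, Hba-a1 by 1.58 and Hbb-bh1 and Hbb-y by 0.92 each, globin genes whose near-identical copies may share probe signal, with a summed intensity of 4468 to 4930 in Pax6-/- and 2181 to 2525 in wild type. The part of these cells in the levels of Crabp1 and Crabp2 was not tested.

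Aldh1a3 is also made by the optic vesicle and the nasal placode. Of 5 tested optic vesicle markers 0 passed the limma test (3 at an unadjusted p under 0.05), and none lay below 0, with Rax, a retinal homeobox gene, at 1.19 (SE 0.30, adjusted p = 0.0561) and Mitf, the brightest, at 0.00. Their list's summed intensity was 1368 to 1854 in Pax6-/- and 1121 to 1339 in wild type, and Vax2 and Hesx1 were not detected on any array. Of 3 tested nasal placode markers 0 passed (0 at an unadjusted p under 0.05), with changes from -0.36 to 0.51, Dlx5, the brightest, at 0.09, and a summed intensity of 498 to 786 in Pax6-/- and 522 to 578 in wild type. The part of these tissues in the level of Aldh1a3 was not tested.

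**Figure D3:**
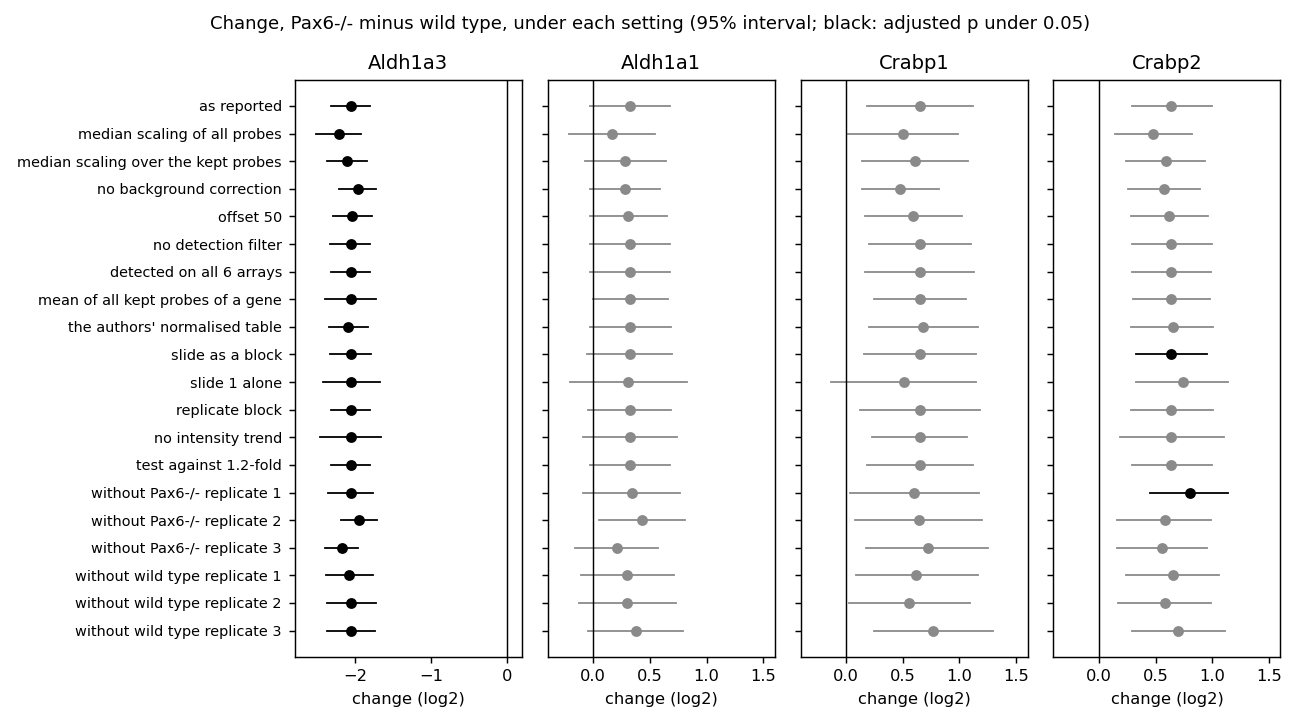
Log2 change of the 4 tested genes, Pax6-/- minus wild type (horizontal axis), with its 95% interval under each setting (rows), black where the adjusted p is under 0.05. Aldh1a3 stays between -2.22 and -1.95 and is black throughout, Crabp2 is black in 2 of the alternatives, and Aldh1a1 and Crabp1 are grey in every row.

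The wider retinoid pathway was read from lists of uptake, oxidation, receptor, coregulator and target genes. Of 71 further genes, 64 were on the array and 33 were tested, of which 2 fell and 0 rose, beside 1.76% lower and 1.51% higher over all tested genes. Their median change was -0.05, against -0.01 over all tested genes. Of the 31 on the array but not tested, 23 were not detected on any array.

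The genes that fell were both in the target list. Tgm2, a transglutaminase known to be induced by retinoic acid, had log2 intensities of 6.33, 5.18 and 6.29 in Pax6-/- and 8.64, 8.28 and 8.46 in wild type. It was detected on 2 Pax6-/- arrays and on all 3 wild-type arrays, and fell by 2.53 (SE 0.36, 95% interval -3.31 to -1.74, limma adjusted p = 0.00317). The fall was -2.81 on slide 1 and -1.96 on slide 2. Its other probe was not detected on any array. Without background correction the change was -1.35, a smaller size on that scale, and still past the threshold.

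Dusp6, an ERK phosphatase listed among the targets and best known as a target of FGF signalling, had log2 intensities of 11.76, 11.41 and 11.33 in Pax6-/- and 12.21, 12.13 and 12.21 in wild type. It fell by 0.69 (SE 0.11, limma adjusted p = 0.00701). A further probe, detected on all arrays, stood at -0.58 with groups that did not overlap (adjusted p = 0.214). A dim one, detected on the 3 Pax6-/- arrays and on no wild-type array, ran the other way and was at least 1.72-fold higher. Its limma test used the measured values, below detection in wild type, and gave 1.4 (SE 0.35, adjusted p = 0.0636). With all 3 averaged, the dim one at its measured values below background, the change was 0.05 (adjusted p = 0.923). Without an intensity trend the adjusted p was 0.115.

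The other 10 tested target genes did not pass. The homeobox genes Hoxb1, Hoxa3 and Hoxb4 and the homeobox gene Cdx1, all classical targets in the hindbrain and trunk, were not detected on any array.

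Retinol uptake was read by 1 tested gene of 9 on the array. Stra6, the membrane receptor for the retinol carrier Rbp4, had log2 intensities of 5.15, 6.08 and 6.47 in Pax6-/- and 7.69, 7.16 and 7.52 in wild type. It was detected on 2 Pax6-/- arrays and all wild-type arrays, and its groups did not overlap. The change was -1.56 (SE 0.39, 95% interval -2.41 to -0.71), just short of the threshold (limma adjusted p = 0.0561). A second Stra6 probe, detected on 2 wild-type arrays and no Pax6-/- array, was at least 1.36-fold lower and was not tested. The adjusted p was under 0.05 in 5 of 18 alternatives, from 0.034 with the slide as a block to 0.0468 with all probes of a gene averaged. The size depended on the background: an offset of 50 gave -1.14, and uncorrected signals gave -0.70. Rbp4 itself and the storage enzyme Lrat were not detected on any array.

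The receptors did not pass the test. Of 7 receptor genes 5 were tested, 0 of them at an unadjusted p under 0.05. Rarb, whose promoter carries a DR5, had log2 intensities of 6.47, 6.47 and 6.88 in Pax6-/- and 4.82, 6.98 and 5.07 in wild type. Wild-type array 2 stood above all Pax6-/- arrays, while the probe was not detected on the other wild-type arrays. The change was 0.98 (SE 0.52, 95% interval -0.16 to 2.12, limma adjusted p = 0.373). Further Rarb probes stood at 0.36 and 0.42 (adjusted p 0.745 and 0.675).

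Rara stood at 0.48 (SE 0.43, limma adjusted p = 0.628), Rarg at 0.08 (SE 0.32, adjusted p = 0.93), the Rxr family member Rxrb at 0.11 (SE 0.19, adjusted p = 0.819) and Ppard, a nuclear receptor that also binds retinoic acid, at -0.64 (SE 0.57, adjusted p = 0.625). A further Ppard probe, detected on all arrays, stood at 0.02. The Rara probe was dim, detected on 2 Pax6-/- arrays and 1 wild-type array. The other Rarg probes were not detected on any array. Rxrg was not detected on any array and Rxra on 1 Pax6-/- array. For Rxrb the arrays ran from 10.35 to 10.55 in Pax6-/- and from 10.05 to 10.81 in wild type, so the groups overlapped.

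Among other oxidising enzymes 0 of 6 tested genes passed over all genes in limma, with 2 at an unadjusted p under 0.05. Rdh5, a retinol dehydrogenase of the pigment epithelium, stood at 0.94 (SE 0.39, adjusted p = 0.242) on a probe assigned to a clone record. Its RefSeq probe was not detected on any array. Dhrs4, which was named after its values were seen, stood at -0.73 (SE 0.28, adjusted p = 0.215). A further Dhrs4 probe, detected on 2 Pax6-/- arrays and all wild-type arrays, stood at -1.16 (limma adjusted p = 0.116). Neither probe overlapped between genotypes, and with both averaged the change was -0.94 (limma adjusted p = 0.077). Among other carriers and clearing enzymes, Fabp5, which carries retinoic acid to Ppard, stood at 0.79 (SE 0.34, adjusted p = 0.268). Cyp26b1, also named after its values were seen, was detected on the 3 wild-type arrays (5.58, 6.66 and 5.81) and on no Pax6-/- array (5.45, 4.93 and 5.42). Its bound was at least 1.21-fold lower. The limma test used the measured values, below detection in Pax6-/-, and gave -0.75 (SE 0.38, adjusted p = 0.355). Of 9 tested coregulators 0 passed in limma, 0 of them at an unadjusted p under 0.05. By the brightest probe of each, Tbl1x, a corepressor subunit, had the widest change among them, at -0.35 (SE 0.21, limma adjusted p = 0.432). A further Tbl1x probe, detected on all arrays, stood at 0.07, and some dimmer probes of other coregulators changed more than -0.35 in size.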

How the data were processed

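The deposited intensity of a probe is its mean signal over beads, per the file headers and without scaling between arrays, with a detection p-value, a count of beads and a bead standard error beside each. A second table deposited by the authors holds background-subtracted, normalised intensity, whose method the sources used here do not name, and served as an alternative only. GenomeStudio was the array software, per the submitters' processing notes. Arrays were grouped by the genotype in their titles. Slides 1 and 2 were inferred from the number that opens each array's column header. Pax6-/- array 1 and wild-type array 2 were on slide 2, and the other arrays on slide 1. Background was corrected in R 4.3.3 (limma 3.58.1) by normexp from the detection p-values (nec, offset 16), and arrays were quantile-normalised and log2-transformed. Of 45281 probes, 34885 had 1 gene symbol (18 several, 10378 none), updated through the GRCm38.p6 RefSeq gene table for 34807. Probes detected at p under 0.01 on at least 3 of 6 arrays were kept, and the brightest kept probe stood for its gene, which left 9190 genes. Differences are Pax6-/- minus wild type from limma's moderated linear model that lets the prior variance follow intensity (4 residual degrees of freedom), two-sided, with Benjamini-Hochberg adjustment over all genes, or over all 14535 kept probes for further probes. The fit was tested on simulated data. A bound ("at least N-fold") sets the brighter group's mean against the dim group's, where each array counts with its lowest detected intensity or, if higher, that of the probe. Bead numbers and array number limit the precision.

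The genes and lists were chosen with earlier results of these data known. Named are the 9 genes, Pax6, the called pathway genes, the tested receptors, the widest change of each list with 0 calls, the 3 genes most correlated with a called one (1 of those for Aldh1a3 is not reported here), and the called and the brightest markers of each list with a tested gene. Snai2 and Neurog2 are named besides, after their values were seen, as tested mesenchyme and neural tube markers that lay below 0. Of 6 endothelial and 5 macrophage markers 0 were tested. Sequences are from RefSeq.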

Additional observations from a re-analysis of the deposited data

How the results depend on the processing

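Aldh1a3 kept its direction and its call under all 19 alternatives (change -2.22 to -1.95, limma adjusted p 2.28e-06 to 0.00642). With 1 array left out its change was -2.18 to -1.95. Crabp1 and Aldh1a1 passed under none of theirs (adjusted p from 0.091 and from 0.285), and both stayed above 0. Of the 4 retinoic acid genes, 2 were called with the slide as a block and 1 to 2 with 1 array left out, the second being Crabp2. Of the pathway genes, 1 was called when detection on all 6 arrays was asked for, 1 without an intensity trend and 1 in a test against 1.2-fold. In the first of these settings 26 were tested, and Tgm2 was not among them. Over all genes, 301 calls became 196 with no detection filter, 68 on slide 1 alone, 182 with the replicate block, 176 without an intensity trend, 132 in the test against 1.2-fold and 149 to 209 with 1 array left out. By design, these settings differ in what they test: 19057 genes with no detection filter, and fewer arrays on slide 1 alone or with 1 left out. Further causes of the lower counts were not tested. With median scaling of all probes the median of all genes was -0.13 in place of -0.01, and 26% of calls were higher in place of 46.2%. Relative to that median Aldh1a3 stood at -2.09 and Crabp2 at 0.61. Directions that turned round were those of Dusp6 with its probes averaged (0.05), Rarg without Pax6-/- array 2 (-0.08, the lowest of -0.08 to 0.2 with 1 array left out), and Rxrb with median scaling of all probes (-0.04), on slide 1 alone (-0.08) and without wild-type array 2 (-0.02, the lowest of -0.02 to 0.36 with 1 array left out). Ppard turned round with detection on all 6 arrays, which takes another probe (0.02), and on slide 1 alone (0.43). Pax6 missed the threshold on slide 1 alone (-0.93, adjusted p = 0.0553).

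Titles number the arrays 1 to 3 in each genotype. Same-numbered arrays showed no shared deviation (correlations of deviations from the group means -0.026, -0.024 and -0.002), and the main fit did not pair them. So few arrays cannot exclude that same-numbered ones were handled together. With the replicate block Aldh1a3 changed by -2.06 (adjusted p = 0.000163) and Crabp2 by 0.64 (adjusted p = 0.0898). Probes below detection limit what can be said of Aldh1a2, Rdh10, Dhrs3 and Cyp26a1.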

Other observations

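Outside the named genes, a pair of transcription factor genes of the target list that are induced by retinoic acid in other tissues had groups that did not overlap and did not pass the test. They were chosen after their values were seen, and groups did not overlap for 22.8% of all tested genes. Nr2f2, which encodes the orphan nuclear receptor COUP-TFII, had log2 intensities of 10.68, 10.63 and 10.67 in Pax6-/- and 10.12, 10.32 and 10.38 in wild type. Its change was 0.39 (SE 0.12, limma adjusted p = 0.12, and 0.109 to 0.913 over 19 alternatives). Further Nr2f2 probes stood at -0.02 and 0.42 with groups that overlapped, and at 0.66 without overlap. With all averaged the change was 0.36 (limma adjusted p = 0.406). Meis2, a homeobox gene, had log2 intensities of 11.44, 11.40 and 11.47 in Pax6-/- and 11.24, 11.02 and 11.36 in wild type. Its change was 0.23 (SE 0.10, adjusted p = 0.294), and 0.67 with all its expressed probes averaged (adjusted p = 0.0425, against 0.0425 to 1 over 19 alternatives). That average takes in dimmer clone-record probes at 0.9 and 1.35, while the other RefSeq probe of Meis2 stood at 0.21. Both genes, by their brightest probe, lay above 0 while Tgm2 of the same list fell by 2.53.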
